A study of Mus musculus with 4 samples.

Results

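Nuclear-encoded genes of the mitochondrial respiratory chain were compared between cells labelled as carrying 1 or no working copy of Ptch1, the receptor that holds Hedgehog signalling in check. The set holds 47 genes out of 23107 in the tables: 26 for subunits of complex I, 4 for complex II, 6 for complex III, 10 for complex IV and 1 for cytochrome c. They were taken by gene symbol. The cells were PTHrP+ dental follicle cells sorted by their tdTomato label from mandibular molars of mice at postnatal day 8 (P8), after tamoxifen at P3. One group, cHet, has the genotype label Ptch1(+/-), and the other, cKO, has the label Ptch1(-/-). Each group has 2 libraries of bulk RNA, named as in the deposited tables: cHet_0 and cHet_1, cKO_0 and cKO_1. The sources used here do not give the Cre driver, the deleted exons or any pooling of animals.

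The respiratory chain sits in the inner mitochondrial membrane. Complex I takes electrons from NADH and complex II takes them from succinate. Both pass them through ubiquinone to complex III, and cytochrome c carries them on to complex IV, which reduces oxygen to water. Complexes I, III and IV pump protons, and the gradient drives ATP synthase. Most subunits are encoded in the nucleus and imported, and a few catalytic ones are encoded by mitochondrial DNA. In follicle cells, which lay down collagen-rich matrix around the growing tooth, the chain is a general housekeeping system and marks no cell type.

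Promoters of these genes are known for sites of the factors NRF1, GABPA and YY1, so the windows of the members were searched for them. RefSeq start sites (GRCm38.p6) gave a window from 250 bases before to 50 bases after the start for 37 of the 47 members. The letters searched for NRF1 were GCGC, then any base, then TGCGC, and they were found on either strand in 9 of 37 members (24.3%). They were found in 10.5% of 10032 tested genes and in 5.19% of all 27025 genes with a window. YY1 letters, AAGATGGC, were found in 6 members (16.2%), against 4.67% of the tested genes. GABPA letters, CCGGAAG, were found in 8 members (21.6%), against 17.9%. Letters of a general GC-box factor, SP1 (GGGCGGGG), were found in 6 members (16.2%), against 37.1% of the tested genes. At least 1 of the first 3 motifs was in 20 members (54.1%), against 29.2%. No motif contains another, though the last letters of the GABPA motif can overlap the first of the YY1 motif. A match is a description of sequence, not a bound site. The 250 bases before the RefSeq start are shown for 3 members, chosen as examples with NRF1 letters in complexes I, II and IV. They are printed 5′ to 3′ on the gene's strand, and capitals mark the matches. The window of Ndufs6 is chr13:73328483-73328732, on the minus strand. The window of Sdha is chr13:74350241-74350490, on the minus strand. The window of Cox6a1 is chr5:115348959-115349208, on the minus strand.
Ndufs6: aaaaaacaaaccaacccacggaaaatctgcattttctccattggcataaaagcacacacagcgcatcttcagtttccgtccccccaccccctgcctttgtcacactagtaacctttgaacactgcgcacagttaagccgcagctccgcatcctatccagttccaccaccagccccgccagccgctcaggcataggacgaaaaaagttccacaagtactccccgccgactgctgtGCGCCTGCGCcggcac
Sdha: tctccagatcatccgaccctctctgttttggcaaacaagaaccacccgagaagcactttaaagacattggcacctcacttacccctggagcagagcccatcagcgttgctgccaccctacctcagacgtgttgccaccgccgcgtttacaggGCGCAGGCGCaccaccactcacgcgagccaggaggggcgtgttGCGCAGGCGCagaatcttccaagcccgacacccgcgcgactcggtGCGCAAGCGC
Cox6a1: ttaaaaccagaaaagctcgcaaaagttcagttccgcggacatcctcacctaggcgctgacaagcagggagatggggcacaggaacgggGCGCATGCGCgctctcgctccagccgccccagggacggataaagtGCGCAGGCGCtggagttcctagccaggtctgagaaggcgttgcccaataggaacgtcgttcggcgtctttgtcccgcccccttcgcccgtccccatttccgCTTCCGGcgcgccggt
Ndufs6 has 1 NRF1 match in these bases and a YY1 match after the RefSeq start, Sdha has 3, and Cox6a1 has 2 with 1 GABPA match on the opposite strand. In GENCODE the genes begin further upstream, at 73328542, 74350280 and 115348981, so the last printed bases lie within the annotated genes. The NRF1 match of Ndufs6, the last one of Sdha and the GABPA match of Cox6a1 are among those bases.

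Scaled counts are values per gene that the authors scaled by a factor per library, and their totals per library ran from 69361760 to 71228342. Not all of them can be whole reads divided by 1 factor. In cKO_1, for example, Hba-a1 had 0.02503 and Acta1 had 1.135. Ptch1 itself (chromosome 13, 63508328 to 63573598, minus strand, GRCm38) had scaled counts of 12867 in cHet_0, 5438 in cHet_1, 22420 in cKO_0 and 23341 in cKO_1. Both cKO libraries stood above both cHet libraries, so no loss of transcript was seen over the whole gene. A count over the whole gene includes what lies outside a deleted part, so it does not check the deletion, and the groups below are those of the labels. Markers of mesenchyme and follicle were high in every library, with all 11 detected. Their summed scaled counts were 5801255 and 5824139 in cHet and 3539241 and 3554153 in cKO. Most of each sum came from Col1a1 and Col1a2. Col1a1 had 3673200 and 3370910 in cHet and 2122200 and 2099810 in cKO. The groups did not overlap, with cKO lower, for Col1a1, Col1a2, Postn, Dcn, Lum and Pdgfra. They overlapped for Pthlh, Pth1r, Runx2, Prrx1 and Acta2, so the lower sum does not describe every follicle marker. Markers of other cell types also differed between libraries. The 8 ameloblast and dental epithelium markers summed to 570191 in cHet_0, 1475056 in cHet_1, 966485 in cKO_0 and 2708964 in cKO_1. The 6 Schwann cell and neuron markers summed to between 4567 and 6716 in 3 libraries and to 18161 in cKO_1, and the 4 erythroid markers found summed to between 2358 and 3552 in those 3 and to 12617 in cKO_1. The 5 endothelial markers summed to between 2184 and 4132 in those 3 and to 6341 in cKO_1, and the 5 macrophage and leukocyte markers to 935.2 in cHet_0, 6367 in cHet_1, 1060 in cKO_0 and 9583 in cKO_1. The sum of the 3 odontoblast markers, of the cells that make dentin, differed between the groups. It was 47699 and 74821 in cHet and 803.7 and 12931 in cKO. Dspp and Phex were lower in both cKO libraries, while Dmp1 overlapped, with 16999 and 1534 in cHet and 478.4 and 3341 in cKO. Skeletal muscle markers, of a tissue rich in mitochondria, summed to 902.1 at most, and Ckm and Myh3 were at 0 in all libraries. In bulk RNA, a change in the number of cells of a type cannot be told apart from a change in RNA per cell.

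None of the respiratory chain genes passed the test between cKO and cHet. Counts of at least 10 in at least 2 libraries were found for 46 of the 47, and these had 10 or more in all 4 libraries, from 869.6 (Ndufb3 in cHet_1) to 27276 (Uqcrc1 in cKO_1). The test was limma on log2(scaled count + 3), two-sided and Benjamini-Hochberg adjusted over 14297 genes, with 0.05 as threshold. It called 0 members, and over all genes it called 0 higher (0%) and 0 lower (0%). With any 1 library left out it also called 0 members, while its calls over all genes varied. They made up 7.42% (higher) and 0.546% (lower) of the genes when cHet_0 was left out, 0.0490% and 0.0350% when cKO_0 was, 0.0699% and 0.224% when cKO_1 was, and 0% when cHet_1 was. Adjusted p-values of the members from limma ran from 0.913 to 0.999. At an unadjusted limma p under 0.05 there were 0 members, against 220 genes higher (1.54%) and 213 lower (1.49%) among all those tested. Standard errors of the members ran from 0.25 to 0.82 log2 units (median 0.43).

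Members with a positive log2 difference (cKO minus cHet) numbered 34, or 73.9% of 46, against 56.3% of all genes tested. The median log2 difference of the members was 0.26, beside 0.12 over all genes. The 2 groups did not overlap, with cKO higher, for 7 members (15.2%), against 18.0% of all genes. They did not overlap with cKO lower for 2 members (4.35%), against 14.2% of all genes. In FPKM the groups were separated for 6 of 46 members with cKO higher, against 11.2% of 12278 genes. They were separated for 3 of 46 with cKO lower, against 8.75%. On the scaled counts, the share of separated members was below that of all genes in both directions. In FPKM it was slightly above that of all genes with cKO higher and below it with cKO lower. By complex, positive differences numbered 20 of 25 in complex I, 2 of 4 in complex II, 3 of 6 in complex III and 9 of 10 in complex IV. The median log2 differences were 0.24, -0.09, -0.05 and 0.35 in the same order. The signs depended on single libraries. Without cKO_1 the median of all members was -0.10, with 17 of 46 positive, and the medians of complexes I and IV were -0.05 and -0.14. Without cHet_1 the medians of complexes II and III were 0.11 and 0.16. Without cKO_0 the member median was 0.55, with 38 positive, and complex II stood at 0.09 and complex III at 0.23.

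**Figure D1:**
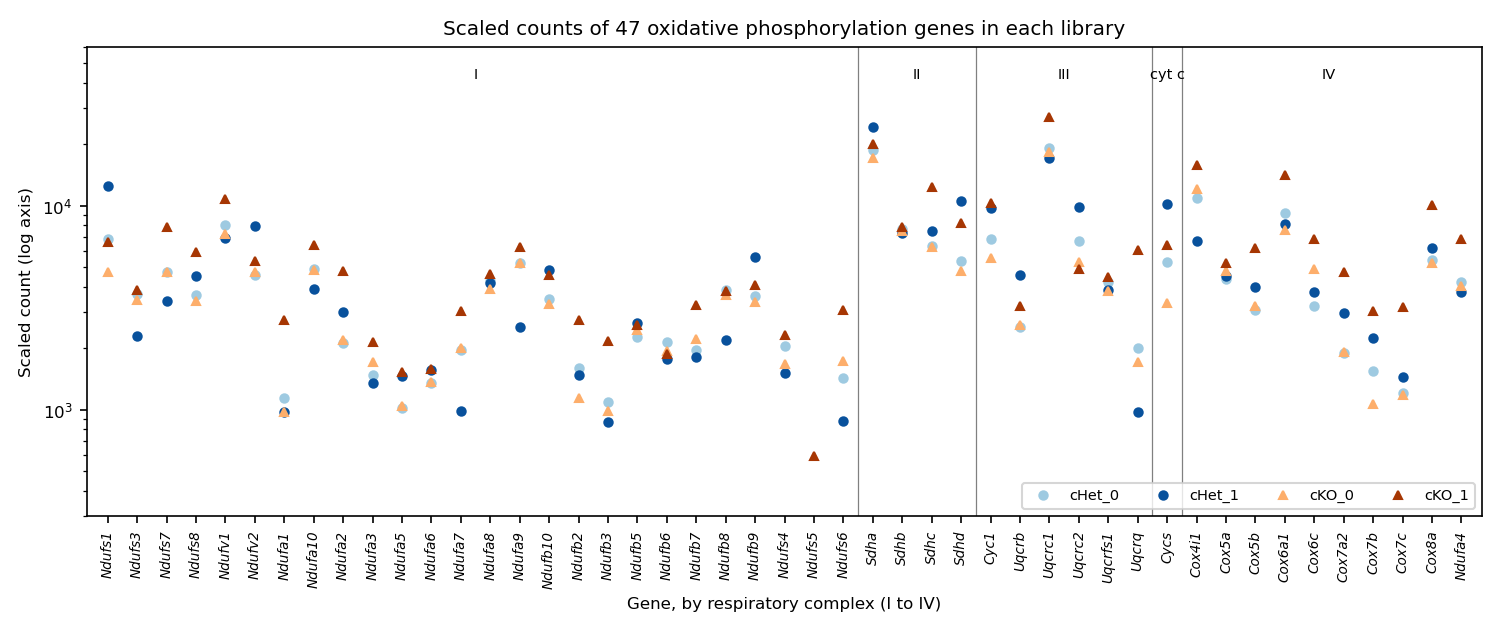
Scaled counts of the 47 members on a log axis, 1 point per library, ordered by complex; Ndufs5 is drawn in cKO_1 only, since its other values are at or near 0. The value of cKO_1 is the highest for 34 of the 46 tested members, and the 2 groups overlap for most genes.

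Within complex I, the core subunits carry the flavin and iron-sulphur clusters through which electrons pass. Ndufs1, the largest core subunit (chromosome 1, 63143596 to 63176833), had the lowest p among them. Its scaled counts were 6900 in cHet_0, 12500 in cHet_1, 4738 in cKO_0 and 6606 in cKO_1. Both cKO libraries were below both cHet libraries, and the spread within cHet was wide. The log2 difference was -0.73 (SE 0.38, adjusted p = 0.913, limma), and it was -0.30 without cHet_1 and -1.16 without cHet_0. In FPKM, reads per transcript length and library size, the order of the groups was the same, with 37.22 and 29.25 in cHet against 25.22 and 16.09 in cKO.

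Ndufs7, which holds the last iron-sulphur cluster before ubiquinone, had scaled counts of 4727, 3410, 4720 and 7818 in cHet_0, cHet_1, cKO_0 and cKO_1. Only cKO_1 stood out, and cKO_0 lay just below cHet_0. This gave a log2 difference of 0.60 (SE 0.40), and of 0.23 without cKO_1. Ndufv1, which binds NADH and the flavin, had 8011 and 6978 in cHet and 7227 and 10831 in cKO, with overlap between the groups. Its log2 difference was 0.24 (SE 0.32). All 6 core subunits were higher in cKO_1 than in cKO_0, and 1 of 6, Ndufv2, was higher in cKO_0 than in cHet_0.

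Accessory subunits of complex I surround the core and are needed for its assembly and stability. Of 19 tested, 16 (84.2%, against 56.3% of all genes) had positive log2 differences, with a median of 0.34. With cKO higher, 4 were separated (21.1%, against 18.0% of all genes): Ndufa3, Ndufa7, Ndufb7 and Ndufs6. Ndufs6 (chromosome 13, 73319838 to 73328542), whose NRF1 letters are shown above, carries a zinc-binding site. It had scaled counts of 1430 and 881.2 in cHet and 1738 and 3079 in cKO. Both cKO libraries were higher than both cHet libraries. The log2 difference was 1.04 (SE 0.68, adjusted p = 0.913, limma), and it was 0.63 without cKO_1 and 0.69 without cHet_1.

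Ndufa7 had 1956 and 985.8 in cHet and 1994 and 3048 in cKO, so that cHet_0 and cKO_0 were nearly equal. Ndufa9, a subunit near the site where ubiquinone binds, had 5227 and 2546 in cHet and 5212 and 6302 in cKO. Its low value in cHet_1 gave the largest difference between the 2 cHet libraries among the members (log2 -1.04, with Uqcrq next to it at the same rounded value), and without cHet_1 the log2 difference between groups went from 0.65 to 0.13. The other accessory subunits had log2 differences between -0.28 (Ndufb9) and 0.63 (Ndufa1).

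Complex II, succinate dehydrogenase, also works in the citric acid cycle and is the only complex of the chain with no subunit encoded by mitochondrial DNA. Sdha, the flavoprotein that oxidises succinate (chromosome 13, 74322254 to 74350280), had scaled counts of 18812, 24360, 17077 and 19950 in cHet_0, cHet_1, cKO_0 and cKO_1. The groups overlapped, and within each group the library numbered 1 was higher. For Sdha the log2 difference was -0.21 (SE 0.25). Sdhb, which holds the iron-sulphur clusters, had the least spread of all members: 7716 and 7349 in cHet and 7523 and 7833 in cKO. Its log2 difference was 0.03 (SE 0.28).

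The membrane anchors Sdhc and Sdhd differed in direction. Sdhc had 6373 and 7547 in cHet and 6281 and 12312 in cKO, a log2 difference of 0.34 (SE 0.37) that rested on cKO_1 and was -0.14 without it. Sdhd had 5362 and 10538 in cHet and 4794 and 8180 in cKO, a log2 difference of -0.26 (SE 0.43). For both anchors the groups overlapped. In FPKM the groups of Sdhd did not overlap, with 67.81 and 82.14 in cHet against 60.96 and 67.74 in cKO.

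Complex III, the cytochrome bc1 complex, moves electrons from ubiquinol to cytochrome c. Uqcrc2, a core scaffold protein (chromosome 7, 120635176 to 120659524), had scaled counts of 6703 and 9814 in cHet and 5277 and 4908 in cKO. It was the only member of the complex whose groups did not overlap, and 1 of 2 members in all with cKO lower. The log2 difference was -0.67 (SE 0.33, adjusted p = 0.913, limma), and it stayed between -0.95 and -0.40 when any 1 library was left out. In FPKM its groups overlapped, with 55.58 and 34.10 in cHet and 42.62 and 19.31 in cKO.

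Uqcrq, a small subunit near the ubiquinone site (chromosome 11, 53427922 to 53430831), had the largest log2 difference of the members. Its scaled counts were 2001 and 974.3 in cHet and 1709 and 6084 in cKO. A single library, cKO_1, was high, cKO_0 lay below cHet_0, and the 2 cKO libraries differed by 1.83 log2 units, more than for any other member. Between the groups the log2 difference was 1.21 (SE 0.74), and 0.29 without cKO_1. Uqcrc1, the partner scaffold protein of Uqcrc2, had 19252 and 17154 in cHet and 18286 and 27276 in cKO, a log2 difference of 0.30 (SE 0.27) that was 0.01 without cKO_1.

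Cytochrome c, encoded by Cycs (chromosome 6, 50562563 to 50566538), carries electrons between complexes III and IV and also takes part in apoptosis when released. Its scaled counts were 5263 and 10160 in cHet and 3328 and 6441 in cKO. The groups overlapped, since cKO_1 lay above cHet_0. The log2 difference was -0.66 (SE 0.46), and it was -0.66 also between the 2 libraries numbered 0 and between the 2 numbered 1. Without cHet_0 the log2 difference was -1.13 and without cHet_1 it was -0.18.

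Complex IV, cytochrome c oxidase, has its metal centres in subunits encoded by mitochondrial DNA, and the nuclear-encoded subunits studied here surround them. Cox4i1 (chromosome 8, 120668222 to 120674207), the main isoform of the subunit through which ATP regulates the enzyme, had the lowest p of all members. Its scaled counts were 10843 and 6708 in cHet and 12007 and 15815 in cKO. Both cKO libraries were higher, with cKO_0 only slightly above cHet_0. The log2 difference was 0.69 (SE 0.32, unadjusted p = 0.0645 and adjusted p = 0.913, limma). It was 0.35 without cHet_1 and 1.04 without cHet_0.

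Cox6c (chromosome 15, 35925886 to 35938246), a small membrane-spanning subunit, had scaled counts of 3235 and 3758 in cHet and 4898 and 6881 in cKO. The groups were separated, and here both pairs of equally numbered libraries differed, by log2 0.60 and 0.87. The log2 difference between groups was 0.74 (SE 0.37, adjusted p = 0.913, limma) and lay between 0.49 and 0.98 when any 1 library was left out. Cox5a, the third separated gene of the complex, had 4353 and 4522 in cHet and 4807 and 5230 in cKO, a log2 difference of 0.18. In FPKM the groups of Cox5a overlapped, while those of Cox4i1 and Cox6c did not.

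Ndufa4, first described in complex I and now counted with complex IV, had 4208 and 3762 in cHet and 4042 and 6849 in cKO. Cox8a, a small subunit, had 5393 and 6219 in cHet and 5240 and 10120 in cKO. Cox5b, which binds zinc, had 3092 and 4001 in cHet and 3214 and 6229 in cKO. These 3 genes shared 1 pattern: cKO_1 was high and the other 3 libraries lay close together. Their log2 differences were 0.40, 0.33 and 0.35, and 0.02, -0.14 and -0.13 without cKO_1.

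Over the 10 genes of complex IV, all had their highest value in cKO_1, against 27.0% of all genes tested. Their summed share of the scaled counts was 0.0648% in cHet_0, 0.0614% in cHet_1, 0.066% in cKO_0 and 0.108% in cKO_1. The first 3 values lay close together, and 1 cKO library alone was higher. For all 47 members the shares were 0.301%, 0.324%, 0.281% and 0.413% in the same order, so cKO_0 had the lowest share and cKO_1 the highest.

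The 2 libraries of each group differed from each other by more than the groups did. The members' median absolute log2 difference was 0.55 within cKO, 0.37 within cHet and 0.33 between groups. Over all genes tested these medians were 0.58, 0.87 and 0.56. Of the 46 members, 44 (95.7%) were higher in cKO_1 than in cKO_0, against 47.4% of all genes tested, with a median log2 difference of 0.55 against -0.05. Within cHet, 23 of 46 were higher in cHet_1 than in cHet_0, against 42.0% of all genes, with a median of 0.01 against -0.23. For 41 of 46 members the log2 difference between groups was smaller than the larger of the 2 differences within groups. It was larger than both for 5: Ndufa3, Ndufs6, Uqcrc2, Cox5a and Cox6c, which were picked out after their values were seen. Over all genes tested, 16.3% had a group difference above both. The summed markers of dental epithelium, Schwann cells, erythroid cells, endothelium, macrophages and skeletal muscle were also highest in cKO_1; their part in the members' values was not tested.

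Library numbers 0 and 1 stand in both groups, although the labels do not say that equally numbered libraries share anything. Between cKO_0 and cHet_0, 15 of 46 members were above 0, and the median log2 difference was -0.07 (0.01 over all genes). Between cKO_1 and cHet_1, 36 were above 0, and the median was 0.65 (0.21 over all genes). The sign of the members' median thus differed between the 2 pairs. Values were higher in cKO in both pairs for 12 members (26.1%), against 30.0% of all genes, and lower in both for 7 (15.2%), against 22.1%. The 12 were Ndufa2, Ndufa3, Ndufa5, Ndufa6, Ndufa7, Ndufb7, Ndufs6, Cox4i1, Cox5a, Cox5b, Cox6c and Cox7a2, and the 7 were Ndufb9, Ndufb10, Ndufs1, Sdha, Sdhd, Uqcrc2 and Cycs. With 1 library on each side, these pairs allow no test.

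**Figure D2:**
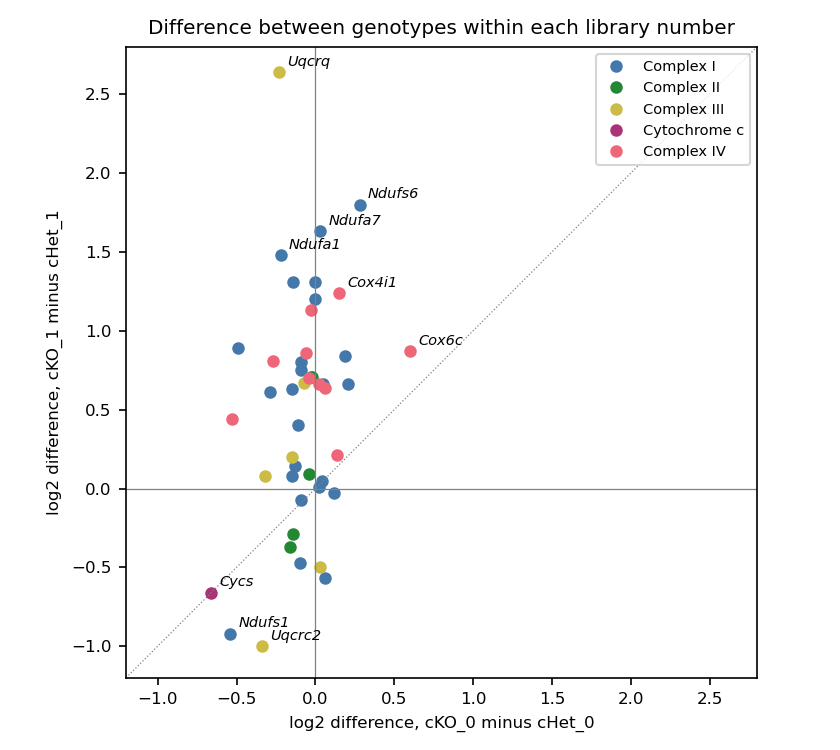
Log2 difference between cKO and cHet for each of the 46 tested members, between the libraries numbered 0 (horizontal axis) and between those numbered 1 (vertical axis), coloured by complex. Most points lie near 0 on the horizontal axis and above 0 on the vertical axis, with medians of -0.07 and 0.65.

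Levels of different members were compared in FPKM, which takes transcript length into account. The 3 highest means over the 4 libraries were in complex IV: 495 for Cox6a1, 354 for Cox8a and 290 for Cox4i1. Their order differed between libraries, since Cox4i1 was above Cox8a in cHet_0 (293.3 against 210.2) and in cKO_0 (329.5 against 213.0), and in cKO_0 it was also above Cox6a1 (306.7). The FPKM of Cox6a1, a small membrane-spanning subunit, was 358.9 in cHet_0, 451.0 in cHet_1, 306.7 in cKO_0 and 864.9 in cKO_1. Its spread over libraries was larger than its distance to Cox8a, whose FPKM ran from 210.2 to 609.2. In complex I the highest mean FPKM was that of Ndufs7 (161), followed by Ndufa3 (151), which was above Ndufs7 in cHet_0 (132.0 against 113.9) and in cKO_0 (154.1 against 118.4). In complex III it was that of Uqcrc1 (187), although Uqcrq was above it in cKO_1 (395.3 against 243.2). In complex II it was that of Sdhb (108), with Sdhc above it in cKO_1 (133.5 against 106.1).

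At the low end, Ndufs4 had a mean FPKM of 14.1, Cycs 16.8 and Cox7b 19.7. Cox7b, a small subunit of complex IV encoded on the X chromosome, had scaled counts of 1551 and 2242 in cHet and 1070 and 3034 in cKO, and was the only gene of its complex with a negative log2 difference (-0.05, SE 0.70). In FPKM that difference was positive (0.02 on the log2(FPKM + 1) scale). Differences in FPKM between genes also rest on the transcript length used for each, which the sources used here do not state.

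**Figure D3:**
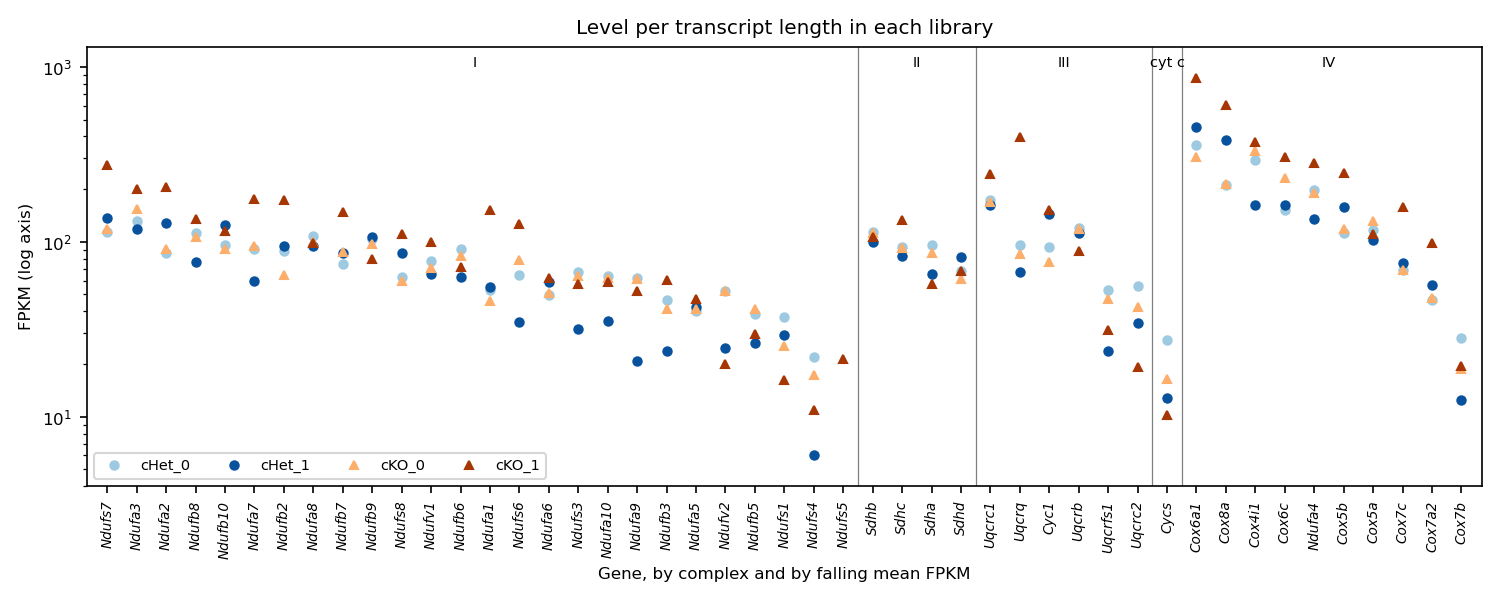
FPKM of the 47 members in each library on a log axis, ordered by mean FPKM; Ndufs5 is shown in cKO_1 only, since it is at or near 0 in the other libraries. Cox6a1, Cox8a and Cox4i1 stand at the top, with means of 495, 354 and 290.

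Ndufs5, an accessory subunit of complex I (chromosome 4, 123712710 to 123718202), stood apart from every other member. It was listed at 0 in cHet_0 and cKO_0, at 0.00674 in cHet_1 and at 590.1 in cKO_1, as scaled counts. Only 1 library gave a value above the filter, so it was not tested and no fold is given. A copy of its coding sequence with 99.371% identity is annotated as a pseudogene. Near-identical copies, of at least 95% identity over at least 80% of the coding sequence, were found for 9 of the 47 members, 16 copies in all. These were Ndufs3, Ndufs5, Ndufs6, Ndufb3, Uqcrb, Cycs, Cox6c, Cox7b and Cox7c, among them a copy of Cox7c with 100% identity. The sources used here do not say how reads that match a gene and such a copy were counted, and the values of these 9 genes are uncertain to that extent. The 0.00674 of Ndufs5 in cHet_1 is a fraction of a count, and how such fractions arose was not tested. Strand was likewise not stated, so antisense transcripts cannot be told apart.

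Transcripts of the respiratory chain are short. The median length of the members' principal transcripts was 868 nt, against 2992 nt for 12291 tested genes with a length, and 27 of 46 members (58.7%) had up to 1000 nt, against 5.06% of those genes. The median log2 difference between groups was 0.36 for the 27 short members, 23 of them positive, and 0.03 for the 19 longer ones, 11 of them positive. Among all tested genes it was 0.22 for 622 short ones and 0.11 for 11669 longer ones. Between the 2 cKO libraries, cKO_1 minus cKO_0, the median log2 difference was 0.61 for short and 0.47 for longer members, against 0.28 and -0.06 for all short and longer genes. Longer members thus also stood higher in cKO_1, 18 of 19, against 46.9% of all longer genes.

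Equally numbered libraries were also alike in how FPKM related to scaled counts. For tested genes of 2001 to 4000 nt, the median FPKM per 1000 scaled counts was 5.24 in cHet_0, 3.01 in cHet_1, 5.22 in cKO_0 and 3.26 in cKO_1. For genes of up to 600 nt it was 39.1, 37.7, 40.6 and 38.4. The ratio for the longer genes was lower in both libraries numbered 1, and that for the shortest genes was nearly equal. The comparison of scaled counts between libraries of 1 gene does not use length, and whether coverage along transcripts differed was not tested.

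**Figure D4:**
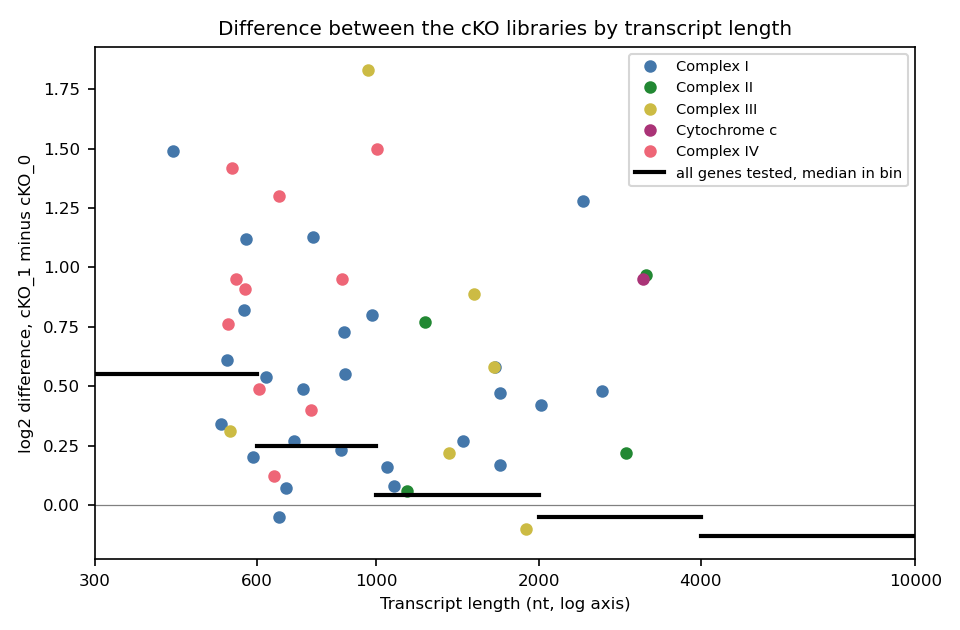
Log2 difference between the 2 cKO libraries (cKO_1 minus cKO_0) against principal transcript length on a log axis. Members are points coloured by complex, and a line marks the median of all tested genes in each length range. The members lie above the line of all genes at most lengths.

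Other genes of the pathway were described in 7 further lists, and limma called 0 genes in each. Of 14 other subunits of complexes I to IV, 12 had positive log2 differences, with a median of 0.39 that was 0.00 without cKO_1. Ndufa13, an accessory subunit of complex I also known as a cell death regulator, had scaled counts of 2973 and 895.8 in cHet and 2981 and 5654 in cKO. Its cHet_0 and cKO_0 values were nearly equal, and the log2 difference was 1.33 (SE 0.67). Ndufa11 and Cox6b1 had log2 differences of 0.66 and 0.79. Of the 14, 13 were higher in cKO_1 than in cKO_0, as most members were.

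ATP synthase, which uses the proton gradient, was described next. Of 17 genes, 13 had positive log2 differences and 4 negative ones, with a median of 0.19, and -0.10 without cKO_1. Atp5d, a subunit of the central stalk, had 12665 and 10719 in cHet and 14246 and 18290 in cKO, without overlap (log2 difference 0.47, SE 0.26). Atp5j went the other way, with 6487 and 7535 in cHet and 5114 and 4457 in cKO, also without overlap (log2 difference -0.55, SE 0.32). Atp5h, of the peripheral stalk, had a log2 difference of 0.65. Higher values in cKO_1 than in cKO_0 were found for 16 of the 17.

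Proteins that act on the chain or feed it without being part of it made up 4 lists. The 14 assembly factors of complex I had 8 positive and 6 negative log2 differences (median 0.17), and the 25 assembly factors of complexes II to IV had 11 and 14 (median -0.02). The 14 regulators of mitochondrial gene expression had 6 and 8 (median -0.04), and the 13 citric acid cycle genes had 5 and 8 (median -0.01). Higher values in cKO_1 than in cKO_0 were found for all 13 citric acid cycle genes (median log2 difference 0.37), and for 7 of 14, 15 of 25 and 9 of 14 genes of the other lists in the order given. Nrf1, Gabpa and Yy1, the factors whose letters were searched in the promoters, had log2 differences of -0.04, 0.15 and -0.35 with adjusted p from limma of 0.994, 0.971 and 0.964. Polg, the polymerase that copies mitochondrial DNA, had 5181 and 4199 in cHet and 6619 and 7617 in cKO (log2 difference 0.61, SE 0.32). Some wide values in these lists rest on cHet_1: Ppargc1b, a coactivator, had 12.56 there against 1047, 1084 and 2069 in cHet_0, cKO_0 and cKO_1, and Cox11, a copper chaperone, had 12.56 against 1154, 1122 and 1294. Foxred1, an assembly factor of complex I, had 55.46 in cHet_1 against 1028, 1257 and 2471. Fewer genes were detected in cHet_1 than in any other library. An FPKM of at least 1 was found for 9850 genes there, against 12360 in cHet_0, 12192 in cKO_0 and 11355 in cKO_1.

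**Figure D5:**
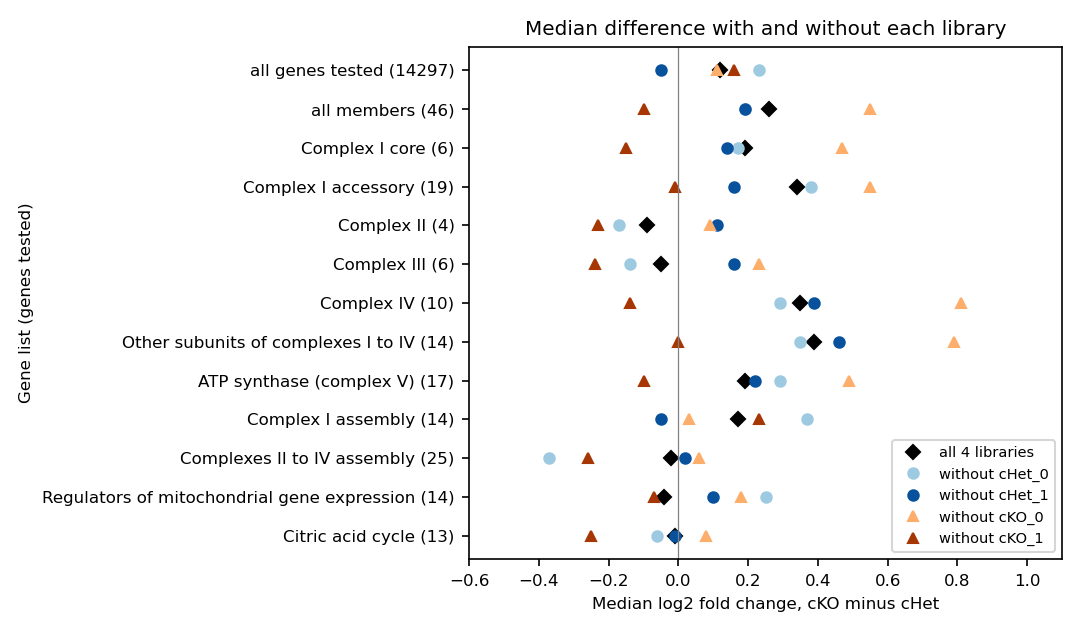
Median log2 difference (cKO minus cHet) of each complex and of the further lists with all 4 libraries and with each library left out in turn, beside the median of all genes tested. The median of all members is 0.26 with all libraries, 0.55 without cKO_0 and -0.10 without cKO_1.

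Isoforms of complex IV that are typical of muscle, testis or low oxygen were listed with their relatives and with Cyct, the testis form of cytochrome c, 10 genes in all. Cox7a1, Cox7b2, Cox8b, Cox8c and Cyct were listed at 0 in all 4 libraries, and Cox6a2, the muscle counterpart of Cox6a1, had 196.3 in cKO_1 and 0 elsewhere. Cox4i2, the alternative to Cox4i1, had scaled counts of 1549 and 434.3 in cHet and 388.9 and 581.0 in cKO, and FPKM values from 9.77 to 38.5. The FPKM of Cox6b2, the testis counterpart of Cox6b1, ran from 13.9 to 31.8. Ndufa4l2, a relative of Ndufa4 known to respond to low oxygen, had 387.9, 5.233, 118.5 and 1090 in cHet_0, cHet_1, cKO_0 and cKO_1, so libraries of 1 group differed more than the groups did. Cox6b2 and Cox7a2l, which helps to join complexes III and IV, had log2 differences of 0.62 (SE 1.39) and -0.74 (SE 0.51). A search by gene symbol found 0 subunits encoded by mitochondrial DNA, so the nuclear values cannot be set against them.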

How the data were processed

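RNA was measured in 4 libraries, 2 per group, from sorted cells; per the labels' protocols, cDNA was amplified from total RNA with a low-input kit. Reads were processed against mm10, per the submitters' processing notes, in which TopHat2 (2.0.13) and Bowtie2 (2.2.1) are listed without a role, next to HTSeq, DESeq2, Cuffdiff, Cufflinks and FastQC. The main values are a signal unit: values per gene in a deposited table, not all of them whole counts, scaled by the authors for each library. FPKM values come from another table deposited by the authors. Another 16 columns in 4 tables, named as raw or normalised counts, match no label and were not used. Columns count from 0 and sample titles from 1, so a column was mapped to its group alone. The labels do not state that libraries of a group are separate animals; p-values then reflect only the spread among the 4 libraries, which may be technical.

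Genes reaching a scaled count of 10 in 2 or more libraries were fitted in limma (version 3.58.1 under R 4.3.3, trend option) on log2(scaled count + 3), with group as the only term; this scale understates changes of low genes. The code of the fit was run on simulated data with larger changes than those of the members. That run does not show whether changes of the members' size could be called. Groups were called separate where every value of one lay above every value of the other. Alternatives changed scaling, filter, pseudocount, table, weights, replicate block and libraries. Gene coordinates and lengths are from GENCODE vM21 (GRCm38, 1-based) and copies were searched with BLAST (2.17.0) among 13607 pseudogene transcripts. The members and lists were chosen with earlier results of these data known. Named were the members of each complex with the lowest p (3 core and 3 accessory in complex I, 2 in complex II, 3 in complex III, 5 in complex IV), Cycs, those with the highest and lowest FPKM, those with the largest difference within a group, and up to 3 genes of each further list; other names were chosen after their values were seen. Scaled totals are not read depths, so no counting error is given, and cDNA amplification hides the number of molecules behind the reads.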

Additional observations from a re-analysis of the deposited data

How the results depend on the processing

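With all 4 libraries, 10 alternative settings called 0 members (lowest adjusted p 0.876, limma), and leaving out any 1 library also called 0 (lowest 0.114). Over all genes, 0 were called in each direction, except 3 higher and 4 lower on log2(FPKM + 1), and 1 higher and 1 lower on log2(FPKM + 0.1). Leaving out 1 library gave 0 to 1061 called higher and 0 to 78 called lower, both maxima being without cHet_0. There were 10 higher and 32 lower when cKO_1 was left out, 7 and 5 when cKO_0 was, and 0 and 0 when cHet_1 was. In these fits the lone library of a group is assumed to vary like the other group. Without cHet_0 that lone library was cHet_1, in which the fewest genes were detected. The members' median log2 difference ran from -0.10 to 0.55 and their positive count from 17 to 38, the extremes being without cKO_1 and without cKO_0. Median-of-ratios scaling moved the median of all genes from 0.12 to 0.02 and that of the members from 0.26 to 0.15, with 28 of 46 positive, and turned Sdhb to -0.08.

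With FPKM, Cox7b turned to 0.03 (pseudocount 0.1) and 0.02 (pseudocount 1). Of 294 values of the 21 named members under alternatives, 14 changed sign, 11 of them with a library left out. Over the libraries left out, log2 differences ran from -0.01 to 0.06 for Sdhb, -0.75 to 0.22 for Sdhd, -0.80 to 0.70 for Cox7b, -0.05 to 0.53 for Ndufv1, -0.14 to 0.83 for Sdhc, -0.14 to 0.80 for Cox8a, -0.13 to 0.82 for Cox5b and -0.18 to 0.72 for Cox6a1. The causes were not tested. Counting Ndufa4 with complex I gave medians of 0.29 for complex I and 0.34 for complex IV.

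The fit with a replicate block by column number called 0 genes and changed no call. Deviations of equally numbered libraries correlated at 0.0486 across genes over 2 pairs, and the labels do not say that numbers pair libraries. TMM scaling and count models were not run, since the columns matched to the labels hold scaled values and not whole reads; columns that match no label were not used.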
